A study of Sus scrofa with 14 samples.

Results

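The secreted ligands of the transforming growth factor beta (TGF-beta) family were examined in the pig meniscus: BMP15, BMP6, BMP7, BMP2, GDF9, TGFB1, TGFB2, TGFB3 and INHBA, together with FST, a secreted inhibitor of this family. Members were found as array probes whose RefSeq accession belongs to one of these genes. BMP15 was chosen by its readout, since its 2 probes had been seen to rise together in the comparison of operated with sham knees, whereas the other genes were listed for their family. No probe was matched to TGFB2, which was not analysed here. The remaining 9 genes were read by 14 of the 43603 probes on the array, and they are 9 of the 2389 genes that could be named. BMP15, TGFB1, TGFB3, INHBA and FST had 2 probes each, numbered here from the brighter to the dimmer, and BMP6, BMP7, BMP2 and GDF9 had 1.

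Meniscus, the fibrocartilage pad of the knee, came from 14 healthy male Wuzhishan pigs aged 6 to 7 months, assigned at random to a group. The OA group of 7 pigs had undergone surgery to the anterior cruciate ligament and the control group of 7 a sham operation, and tissue was collected at 24 weeks in both. Neither the kind of ligament surgery nor a score of joint damage is given in the sources used here. RNA from each animal was read on 1 single-colour Agilent array. Of the 5 listed markers of fibrocartilage with a probe, ACAN, the core protein of aggrecan, and DCN, decorin, were the brightest. Their mean signals were 71715 and 90681, while HAPLN1, TNMD and SOX9 gave 6228, 1265 and 430.

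Ligands of this family are secreted as dimers that bind pairs of type I and type II serine/threonine kinase receptors on the cell surface. TGF-betas and activins signal mainly through SMAD2 and SMAD3, and bone morphogenetic proteins (BMPs) mainly through SMAD1, SMAD5 and SMAD9. In cartilage and fibrocartilage the TGF-betas are known for promoting matrix synthesis, and BMP2 and BMP7 for driving or maintaining the cartilage phenotype. BMP15 and GDF9 are best known as growth factors secreted by the oocyte, where they act on the surrounding granulosa cells.

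Sham arrays were on the whole brighter than OA arrays. The 75th percentile of the processed signal was 418 to 622 units on the sham arrays and 156 to 492 on the OA arrays, and 89.7% to 95.2% and 67.9% to 89.3% of probes were well above background. Arrays scanned in 1 pass are called a slide. The sham arrays lay on slide 1 (sham 1 to 4) and slide 2 (sham 5 to 7), and the OA arrays on slide 3 (OA 1), slide 4 (OA 2 to 5) and slide 5 (OA 6 and 7). No slide held both groups, so a difference between groups and a difference between slides cannot be told apart. The same holds for the scan day: all sham arrays were scanned on day 1, OA 1 on day 2 and the other OA arrays on day 3. Slide 4 was the dimmest, with 75th percentiles of 156 to 250, and slide 5 reached 404 to 492. Unless stated otherwise, a value below is the probe's signal as a percentage of its array's 75th percentile, called the scaled signal, and a change is a difference of group means of its log2, OA minus sham. All 14 probes were bright enough to be tested, and 11 were well above background on every array. In this bulk tissue fewer cells of a type and less RNA per cell cannot be told apart. The number of arrays limits the precision.

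BMP15 was higher on the OA arrays at both probes once arrays were scaled, and not before. On probe 1 the scaled signal ran from 8.73% to 15.3% in sham, with a median of 11.8%, and from 15.6% to 21.6% in OA, with a median of 16.7%. On probe 2 it ran from 3.15% to 6.46% in sham, with a median of 5.28%, and from 7.71% to 13.0% in OA, with a median of 8.89%. Every OA array thus lay above every sham array at both probes, with the smallest gap at probe 1 between sham 5 and OA 5. Of all 38818 tested probes, 1.57% had every OA array above every sham array, and 0.155% had the reverse. Because BMP15 was picked for this rise, the separation is a description of the choice and no test is given.

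The group means of BMP15 were 11.3% ± 2.3 in sham and 17.6% ± 2.2 in OA on probe 1 (SD, n = 7 per group), and 5.24% ± 1.06 and 9.45% ± 1.82 on probe 2. The means of the log2 values differed by 0.66 and 0.86, a 1.58-fold and a 1.82-fold higher geometric mean in OA. Over all tested probes the change had a median of -0.05, and over the probes of like brightness (1 of 10 equal classes) it was -0.06 for probe 1 and -0.12 for probe 2.

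The signal of BMP15 as scanned was not higher in OA. Probe 1 gave 43.1 to 89.6 units in sham, with a median of 56.0, and 30.5 to 79.3 in OA, with a median of 39.2. Probe 2 gave 18.8 to 37.9 units in sham, with a median of 25.7, and 13.9 to 42.2 in OA, with a median of 23.7. The groups overlapped at both probes, and the unscaled changes were -0.41 and -0.21, whereas all tested probes together had a median of -1.12. The geometric mean of the 75th percentile was 2.10-fold higher in sham than in OA, while that of the BMP15 signal was 1.33-fold higher on probe 1 and 1.16-fold higher on probe 2. The scaled values of BMP15 were thus higher in the OA group, whose arrays were on the whole dimmer. Single arrays overlapped in brightness: the 75th percentile was 492 on OA 7 and 418 on sham 2. The part of array brightness in this difference was not tested.

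**Figure D1:**
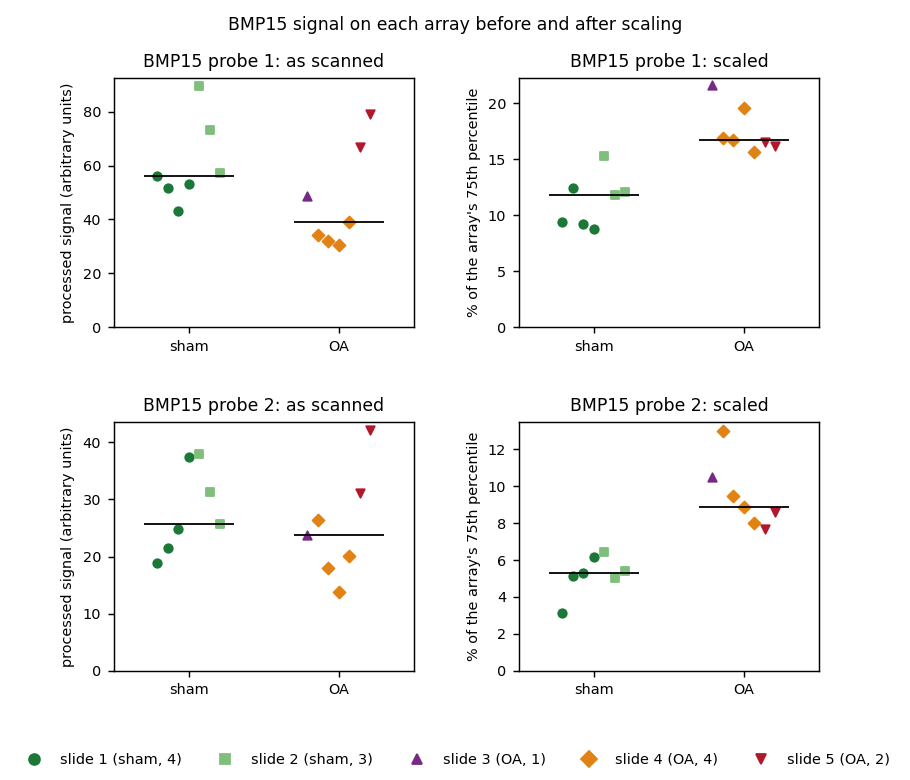
Signal of the 2 BMP15 probes on each array, as scanned (left, arbitrary units) and as a percentage of the array's 75th percentile (right); each point is 1 array, colour and shape give the slide, and lines mark group medians. As scanned the groups overlap, with medians of 56.0 and 39.2 on probe 1; after scaling every OA array lies above every sham array.

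The higher scaled value of BMP15 was present on each OA slide, at differing size. Against the sham mean, probe 1 was higher by 0.96 on the 1 array of slide 3, by 0.63 on slide 4 and by 0.56 on slide 5, and probe 2 by 1.03, 0.92 and 0.67. Slide 5 is the OA slide whose brightness came nearest to that of the sham arrays. There the scaled signal of probe 1 was 16.1% and 16.5%, just above the highest sham array at 15.3%, and that of probe 2 was 7.71% and 8.58%, against a highest sham value of 6.46%. The sham slides differed from each other as well, slide 2 standing 0.40 above slide 1 on probe 1 and 0.23 above it on probe 2, whereas the median over all tested probes was -0.14 for that difference. Within OA, the 75th percentile was 2.26-fold higher on slide 5 than on slide 4, and the BMP15 signal was 2.15-fold higher on probe 1 and 1.90-fold higher on probe 2.

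**Figure D2:**
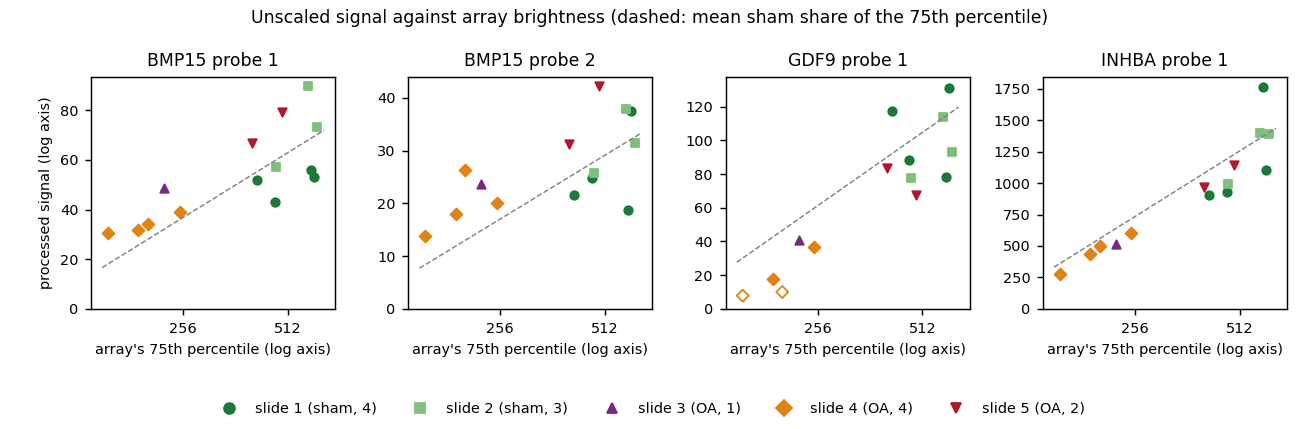
Unscaled signal of the BMP15 probes, GDF9 and INHBA probe 1 against the 75th percentile of the same array, both in arbitrary units. The horizontal axis is logarithmic, and the vertical axis is linear although its label reads log axis. Each point is 1 array, and an open symbol is a value not well above background. The dashed line is straight: it equals the mean sham share of the 75th percentile only at its ends and runs above that share between them. As drawn, all OA arrays lie above the line for BMP15 and below it for INHBA and GDF9. Against the sham mean of the log2 scaled signal, INHBA probe 1 stood at 0.05, 0.01 and 0.10 on slides 3, 4 and 5. GDF9 stood at -0.02, -1.28 and -0.12 on the same slides.

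GDF9, the oocyte partner of BMP15, went the other way. Its scaled signal was 13.1% to 28.2% in sham, with a median of 18.8%, and 4.93% to 20.7% in OA, with a median of 13.8%. The 3 OA arrays below all sham arrays, OA 2, OA 3 and OA 4, were on slide 4, and on 2 of the 7 OA arrays, OA 2 and OA 4, GDF9 was not well above background. The change was -0.77 ± 0.32 (SE, n = 7 per group) with a 95% interval of -1.45 to -0.09, and it did not pass the threshold of 0.05 (limma adjusted p = 0.19). It stood at -1.28 on slide 4 and at -0.02 and -0.12 on slides 3 and 5. Without slide 4 the change was -0.09 (limma adjusted p = 0.93).

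Among the 8 genes other than BMP15, 0 of 12 probes were called higher and 0 called lower in OA by limma after adjustment over all tested probes, where 2.88% of all probes were called higher and 0.848% lower. At an unadjusted p under 0.05 the count was 1, the GDF9 probe, where 19.6% of all tested probes passed. Of the 12 changes 5 were positive and 7 negative, with a median of -0.24 and a range of -0.77 to 0.51, where all tested probes had a median of -0.05. The groups overlapped at all 12 probes, and the adjusted p ran from 0.19 to 0.91. A p that misses the threshold does not show that the groups were alike, and the intervals below give what each probe allows.

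**Figure D3:**
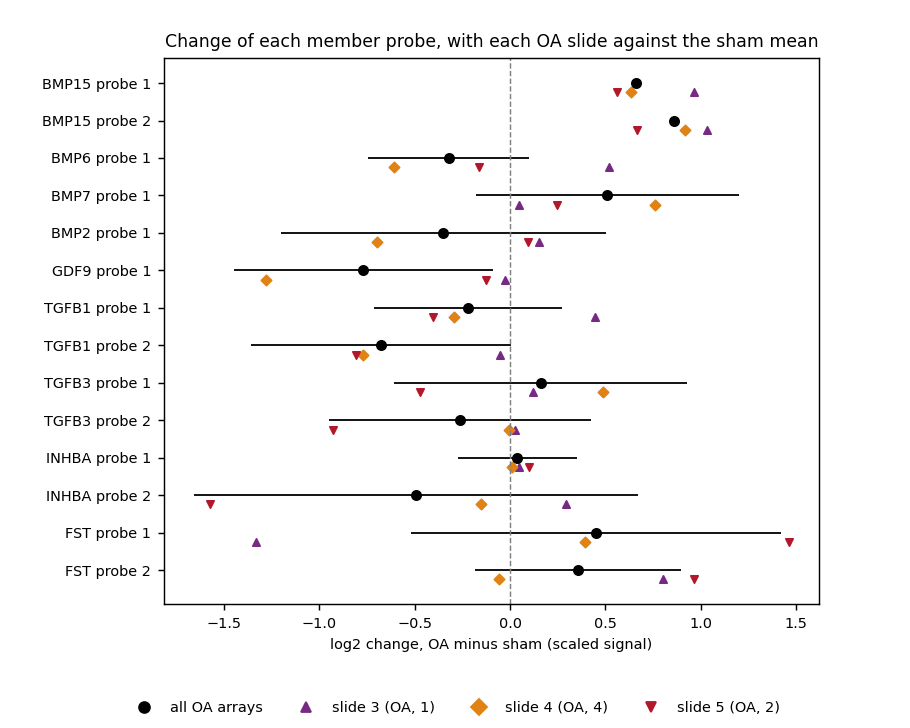
Change in log2 scaled signal, OA minus sham, for each of the 14 probes (black points); lines are 95% intervals from limma, left out for BMP15, and coloured symbols give each OA slide against the sham mean. Both BMP15 probes lie above 0 on every slide, and of the others only GDF9 has an interval that leaves out 0.

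Of the bone morphogenetic proteins, BMP6, an inducer of bone and cartilage formation that also regulates iron through the liver, had a scaled signal of 6.27% to 9.16% in sham, with a median of 7.11%, and of 4.02% to 10.6% in OA, with a median of 5.45%. The highest OA value was that of OA 1, above every sham array, and 4 of the 7 OA arrays, all of slide 4, lay below every sham array; 2 of them were not well above background. The change was -0.32 ± 0.20 (SE; limma adjusted p = 0.40), made up of 0.52 on slide 3, -0.61 on slide 4 and -0.16 on slide 5. With normexp background correction, which moved the median of all probes to 0.34, the change turned to 0.55 and was called (limma adjusted p = 0.0047).

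BMP7, which in cartilage is known as an anabolic factor of chondrocytes, had a scaled signal of 2.87% to 6.90% in sham, with a median of 5.21%, and of 3.52% to 16.9% in OA, with a median of 7.95%. OA 3, at the top, was above every sham array together with 3 others, and OA 2 was not well above background. The change was 0.51 ± 0.33 (SE; limma adjusted p = 0.41) with a 95% interval of -0.18 to 1.20. It was 0.29 without OA 3 and 0.18 without slide 4. With normexp it was 0.78 and was called (limma adjusted p = 0.0021).

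BMP2, a potent inducer of cartilage and bone, varied widely within both groups. Its scaled signal was 31.6% to 116% in sham, with a median of 45.1%, and 18.7% to 137% in OA, with a median of 40.9%. The highest array of all was OA 6, followed by sham 2, and 3 of the 7 OA arrays lay below every sham array. The change was -0.35 ± 0.40 (SE; limma adjusted p = 0.67) with a 95% interval of -1.20 to 0.50, and it was 0.11 without slide 4. Leaving out 1 array gave -0.15 (OA 2) to -0.63 (OA 6), with -0.17 without sham 2 and -0.22 without OA 7.

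TGFB1, the family's prototype and a driver of matrix deposition and fibrosis, had negative changes at both probes. On probe 1 the scaled signal was 221% to 337% in sham, with a median of 257%, and 110% to 355% in OA, with a median of 226%. On probe 2 it was 15.8% to 55.5% in sham, with a median of 28.4%, and 9.54% to 32.0% in OA, with a median of 19.1%. OA 7 was the lowest array at both probes, OA 1 and OA 6 were the 2 highest OA arrays at both, and sham 3 was the highest sham array at both. The changes were -0.22 ± 0.23 on probe 1 and -0.68 ± 0.32 on probe 2 (SE; limma adjusted p = 0.64 and 0.26), with 95% intervals of -0.71 to 0.27 and -1.36 to 0.01. On probe 1 the change was -0.05 without OA 7, -0.33 without OA 1 and -0.12 without slide 4.

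TGFB3, known for inducing cartilage formation from progenitor cells, had a mean signal of 8041 units on probe 1. The scaled signal of that probe was 1042% to 4188% in sham, with a median of 2214%, and 1062% to 5047% in OA, with a median of 2088%. On probe 2 it was 292% to 897% in sham, with a median of 595%, and 271% to 943% in OA, with a median of 483%. The groups covered nearly the same range at both probes. The changes were 0.16 ± 0.36 and -0.26 ± 0.32 (SE; limma adjusted p = 0.85 and 0.69), of opposite sign. Leaving out 1 array moved them from -0.03 (OA 3) to 0.35 (OA 6) and from -0.43 (sham 1) to -0.12 (OA 6).

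TGFB3 differed more between slides of 1 group than between groups. On probe 1, sham slide 2 stood 1.05 above sham slide 1 on the log2 scale, and OA slide 4 stood 0.96 above OA slide 5; on probe 2 these differences were 0.41 and 0.93. Over all tested probes the medians of the same differences were -0.14 and -0.16. Without slides 3 and 4, probe 1 stood at -0.47 and probe 2 at -0.93.

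INHBA encodes the beta-A subunit, which forms activin A as a homodimer and inhibin A together with the alpha subunit. On probe 1 its scaled signal was 182% to 296% in sham, with a median of 217%, and 178% to 247% in OA, with a median of 232%. The change was 0.04 ± 0.15 (SE; limma adjusted p = 0.91) with a 95% interval of -0.27 to 0.35, the narrowest of the 12 tested probes, and the 3 OA slides stood at 0.05, 0.01 and 0.10. The dimmer probe 2 gave 4.75% to 71.9% in sham and 3.55% to 26.8% in OA, and its change of -0.49 ± 0.55 had an interval of -1.66 to 0.67 (limma adjusted p = 0.66). That change became -0.14 without OA 7, -0.21 without sham 3, -0.28 without sham 2 and -0.86 without sham 4.

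FST, follistatin, binds activins tightly and some BMPs more weakly and keeps them from their receptors. On probe 1 its scaled signal was 12.6% to 61.3% in sham, with a median of 36.1%, and 12.5% to 105% in OA, with a median of 56.4%. On probe 2 it was 14.1% to 32.7% in sham, with a median of 21.0%, and 17.7% to 52.8% in OA, with a median of 25.7%. OA 7 was the highest OA array and sham 4 the highest sham array at both probes, and 3 of the 7 OA arrays lay above every sham array at each probe. The changes were 0.45 ± 0.46 and 0.36 ± 0.26 (SE; limma adjusted p = 0.63 and 0.47). With normexp the change on probe 2 was 0.54 and was called (limma adjusted p = 0.0038), and that on probe 1 was 0.48 (limma adjusted p = 0.12). Leaving out 1 array gave 0.23 (sham 2), 0.24 (OA 7), 0.68 (OA 4) or 0.75 (OA 1) on probe 1 and 0.21 (OA 7) on probe 2.

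The FST values differed between the OA slides, and on probe 1 also within slide 4, from 16.6% (OA 4) to 69.8% (OA 2). OA 6 and OA 7, on slide 5, gave 71.4% and 105% on probe 1 and 35.9% and 52.8% on probe 2, above every sham array at both probes. Slide 5 thus stood 1.46 above the sham mean on probe 1 and 0.96 above it on probe 2 (log2), against 0.39 and -0.06 for slide 4. On OA 1, the array of slide 3, the probes parted: probe 1 stood at -1.33 and probe 2 at 0.80. As slide 5 holds 2 arrays of 1 group, a difference between animals and a difference between slides cannot be told apart.

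**Figure D4:**
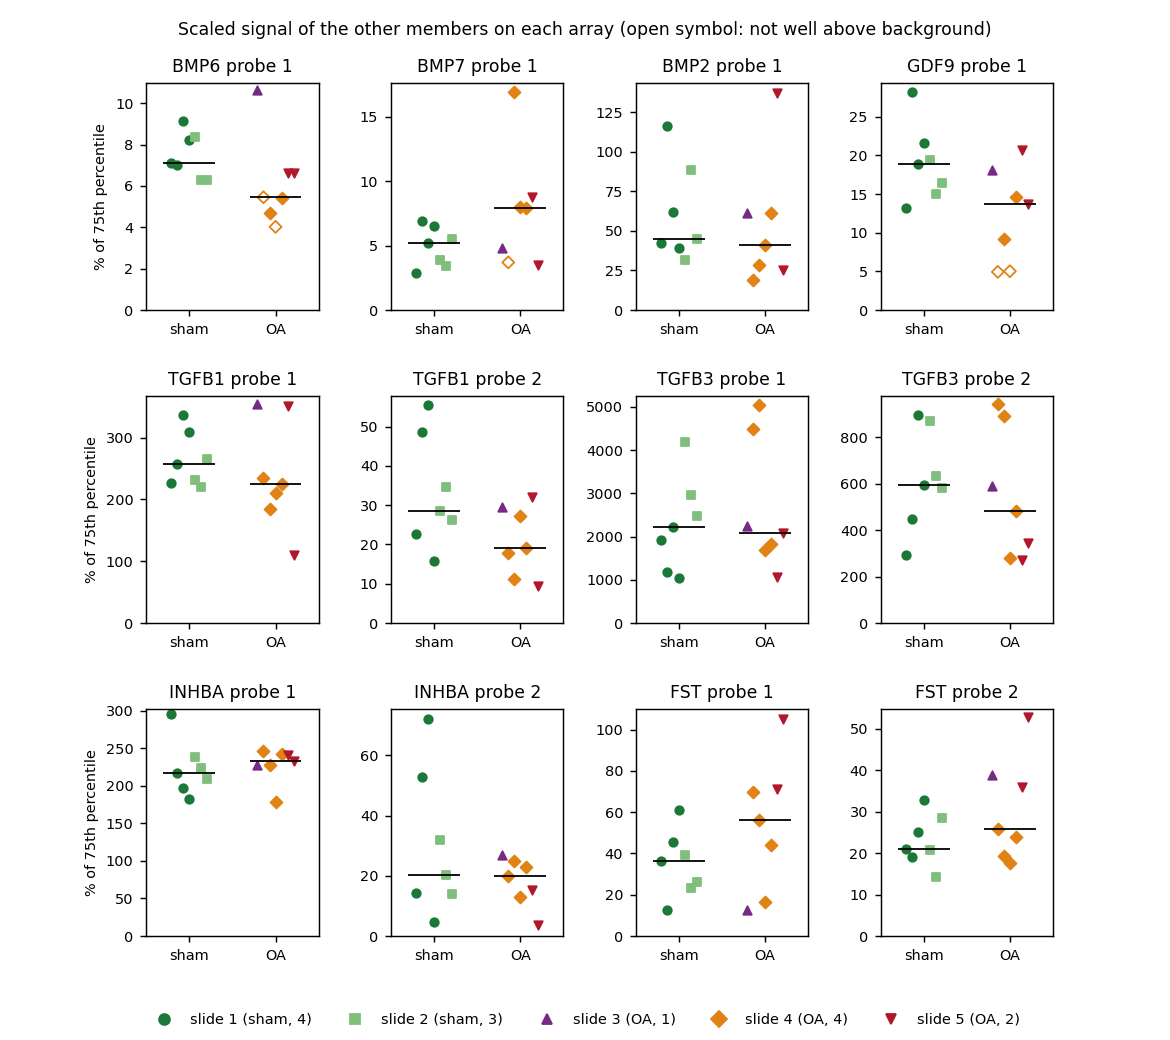
Scaled signal of the 12 probes of the other members on each array, as a percentage of the array's 75th percentile; each point is 1 array, colour and shape give the slide, open symbols are values not well above background, and lines mark group medians. The groups overlap in every panel; the 3 lowest GDF9 values are from slide 4, and both arrays of slide 5 lie above every sham array at both FST probes.

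Where a gene had 2 probes, their agreement over the 14 arrays varied, as described here without a test; all values share the scaling of their array. For BMP15 the scaled log2 values of the 2 probes had a Pearson r of 0.81 and a Spearman rho of 0.86, which fell to a Pearson r of 0.37 after group means were removed. Most of the agreement between the BMP15 probes was thus the group difference for which they had been picked. For TGFB1 and TGFB3 the r was 0.66 and 0.69, and 0.64 and 0.73 with group means removed. That agreement was mostly of the OA arrays: for TGFB1 the r was 0.88 in OA and 0.14 in sham, and for TGFB3 0.92 and 0.46. For FST it was 0.44 and 0.39, and for INHBA 0.07 and 0.10, so the INHBA probes did not order the animals alike.

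**Figure D5:**
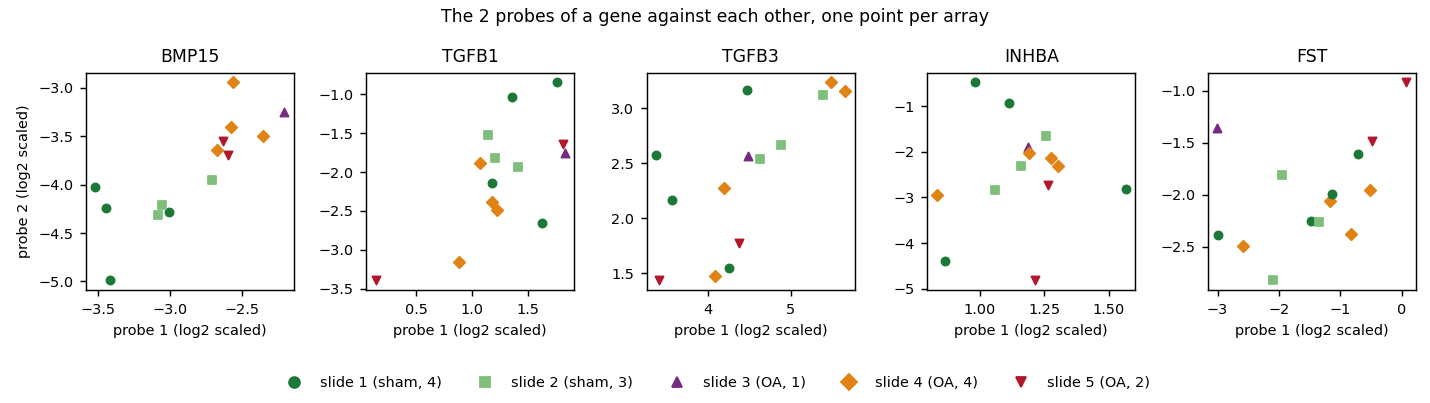
Log2 scaled signal of probe 2 against probe 1 for the 5 genes with 2 probes; each point is 1 array, with colour and shape giving the slide. The BMP15 points form a sham and an OA cloud (r of 0.81), the TGFB3 points of OA spread along a line (r of 0.92, against 0.46 in sham), and the INHBA points show no common order (r of 0.07).

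Among the 9 genes, each by its brighter probe and with group means removed, the 36 pairwise correlations over 14 arrays ran from -0.61 to 0.64 with a median of 0.03. BMP6 and BMP2 were the genes most like GDF9, at r of 0.64 and 0.61. TGFB3 went against BMP2 (r of -0.61), and FST against BMP15 (r of -0.61). These values describe 14 arrays that differ in brightness by slide, and no meaning is read from them.

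The named genes whose scaled signal was most like that of BMP15 over the 14 arrays, out of 2249 candidates each read by its brightest probe, were TRIM40, CBR2, MYOD1, SYN1 and NPY2R, with a Pearson r of 0.91 to 0.93 and a Spearman rho of 0.85 to 0.93. All 5 were higher in OA, by 0.90 to 1.44 on the log2 scale, and their r was 0.63 to 0.73 with group means removed. BMP15 was picked for its rise, and likeness to it over all arrays favours genes higher in OA. The shared direction is thus a description of the choice. MYOD1 is a transcription factor of muscle commitment, SYN1 a protein of synaptic vesicles and NPY2R a receptor of neuropeptide Y. The mean signals of the 5 ran from 14.7 units (MYOD1) to 97.8 (TRIM40), where all tested probes had a median of 86.6. The BMP15 probes had mean signals of 51.2 and 25.4. With group means removed, VARS2, SLC9A2, CBR2, SYN1 and HMGA1 were most alike, at r of 0.69 to 0.75.

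Other genes of the pathway showed no calls. Of 6 measured receptors, 3 SMADs, 3 extracellular binders and inhibitors, 4 other ligands and 8 target genes, 0 passed the threshold by limma in either direction, where 3.23% of the 2258 tested genes did. At an unadjusted p under 0.05 the count was 0 as well, where 15.3% of the tested genes passed. The median changes of these lists were 0.08, -0.03, 0.01, 0.07 and 0.22.

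Among the receptors the smallest p values belonged to the activin receptors ACVR1B, of type I, at 0.49 ± 0.25, and ACVR2B, of type II, at 0.39 ± 0.20 (SE; limma adjusted p of 0.30 for both). SMAD1, a transducer of BMP signals, stood at -0.23 ± 0.24 and SMAD3, a transducer of TGF-beta and activin signals, at 0.23 ± 0.27. INHA, the inhibin alpha subunit that pairs with the product of INHBA, stood at 0.30 ± 0.16 with both of its probes positive (limma adjusted p = 0.32), and NOG, the BMP antagonist noggin, at -0.19 ± 0.24. Of the other ligands, AMH stood at 0.28 ± 0.24 and BMP4 at -0.32 ± 0.33. Of the target genes, 6 of 8 had a positive change: KLF10, an early TGF-beta response gene, stood at 0.28 ± 0.17, and PMEPA1, an inhibitor of TGF-beta signalling that TGF-beta itself induces, at 0.35 ± 0.23 (SE; limma adjusted p = 0.37 and 0.42).

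Genes of the cells in which BMP15 and GDF9 are best known were read beside them. All pigs were male and the tissue was meniscus, so the lists are read as genes and not as signs of ovarian cells. These counts are to be read against the 3.23% of all tested genes that passed in either direction. Of 6 tested oocyte genes 0 passed, with a median of -0.13 and 1 positive change, that of KIT, a receptor also found in other cells, at 0.48 ± 0.41 (SE; limma adjusted p = 0.55). ZP3 and ZP2, egg coat proteins, stood at -0.22 ± 0.20 and -0.20 ± 0.29, and ZP2 was well above background on 3 of the 7 OA arrays. ZP4, an egg coat protein too, was not bright enough to be tested. Of 7 tested granulosa cell genes 1 rose: NR5A1, a nuclear receptor of steroid-producing cells, by 0.98 ± 0.19 (SE; limma adjusted p = 0.013), with 2 of its 3 probes positive. FSHR was not bright enough to be tested and LHCGR stood at -0.59 ± 0.22 (limma adjusted p = 0.14). The summed scaled signal of the oocyte list was 109% to 367% in sham and 197% to 595% in OA, including KIT with medians of 211% and 217%. That of the granulosa list was 326% to 504% and 297% to 1062%, of which CYP19A1 alone gave 149% to 271% and 126% to 887%. CYP19A1 stood at 0.29 ± 0.36 (SE; limma adjusted p = 0.70), with 1 of its 2 probes positive. The part of the genes of either list in the BMP15 values was not tested.

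Lists for other cells a dissected meniscus can hold gave these counts, to be read beside the 3.23% of all tested genes that were called. Of 5 fibrochondrocyte, 4 macrophage and 3 endothelial genes 0 passed. Of 10 skeletal muscle genes 2 rose: MYOD1 by 1.44 ± 0.24 and TNNI1, the slow troponin I, by 0.71 ± 0.18 (SE, limma adjusted p = 0.0071 and 0.041). Both were dim, with mean signals of 14.7 and 32.8 units, and only 1 of the 2 TNNI1 probes was bright enough to be tested. The other 8 did not pass. Of these, MYH7 stood at 0.97 ± 0.29 (limma adjusted p = 0.075) and MYH1 at 0.39 ± 0.18 (SE). ACTA1, skeletal actin, stood at -0.38 ± 0.29 and TNNT3, the fast troponin T, at -0.44 ± 0.66. Of all 10 muscle genes 6 had a positive change. By limma 4 of them had an unadjusted p under 0.05, where 15.3% of the tested genes did. Of 6 tested adipocyte genes LEP, leptin, rose by 0.74 ± 0.16 at its brightest probe (SE; limma adjusted p = 0.021), and 1 of its 2 probes was positive. Of the 6, 4 had a positive change, while ADIPOQ and CIDEC stood at -0.18 ± 0.27 and -0.34 ± 0.47 (SE). PLIN1 was not bright enough to be tested. The lists' medians were 0.01, 0.32, -0.41, 0.27 and 0.37. The summed scaled signal of the muscle list was 1083% to 3896% in sham and 822% to 2113% in OA, of which ACTA1 alone gave 963% to 3621% and 697% to 1927%, and that of the adipocyte list 491% to 2024% and 601% to 3273%.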

How the data were processed

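Members and gene lists were chosen with earlier results of these data known. Per the file headers, the deposited intensity values come from Agilent Feature Extraction 11.0.1.1, with background subtracted and spatial trends removed within each array; they were not normalized between arrays. Other deposited columns hold 0 or 1 flags. The authors' deposited log2 table (array medians 6.00, Spearman rho with the scanner signal 0.994 to 1.00) was used as an alternative; no source used here says how it was made.

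Log2 processed signals were centred per array on the 75th percentile of its non-control probes; 82 marked spots were set missing. The 38818 probes that exceeded background clearly on 7 or more of the 14 arrays were compared with limma 3.58.1 in R 4.3.3 (lmFit, eBayes, two-sided) with Benjamini-Hochberg adjustment. Each array was taken as 1 animal. Genes were named by RefSeq accession through the Sscrofa11.1 gene table (5461 of 5779 accession-bearing probes); lists and likeness used each gene's brightest probe. All member probes are named, from each pathway list those past the threshold or the 2 smallest p. Normexp used spot and background medians, since the files hold no mean signal. The limma fit was tested on simulated data. These had independent noise on each array and no slide or brightness differences, so that test cannot speak to slide effects.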

Additional observations from a re-analysis of the deposited data

Results flagged for a closer look

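In 3 of 28 groups of 7 arrays, 1 array stood far from the others by Dixon's ratio, taken on the log2 scaled signal. Chance gives about 1 in 20 such groups. The values below are percentages. On BMP15 probe 2, sham 1 had a scaled signal of 3.152% against 5.05% to 6.46% on the other sham arrays, and without it the change was 0.74 in place of 0.86. On INHBA probe 1, OA 4 was at 178.3% against 228% to 247%, and without it the change was 0.10. On INHBA probe 2, OA 7 was at 3.55% against 13.0% to 26.8%, and without it the change was -0.14.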

How the results depend on the processing

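The 2 BMP15 probes stayed positive under 27 of 28 alternatives, from 0.56 to 0.79 and from 0.67 to 0.99. BMP15 was picked for this rise, and every scaled OA value lay above every scaled sham value. Leaving out arrays or slides thus could not turn the sign, and the count is a description only. Without any scaling between arrays, chosen after seeing the data, they stood at -0.4129 and -0.2109. That setting gave 9 probes called higher, 31461 lower and 9 member probes lower (BMP15 not counted), and turned BMP7 to -0.5618, TGFB3 probe 1 to -0.9109, INHBA probe 1 to -1.0336, and FST to -0.6207 and -0.7160. Normexp background correction moved the median of all probes to 0.34 and gave 17637 higher and 778 lower calls and 3 member probes higher: BMP6 at 0.5485, turned from negative, BMP7 at 0.78 and FST probe 2 at 0.54 (limma adjusted p = 0.0047, 0.0021 and 0.0038). It also turned GDF9 to 0.1545, INHBA probe 1 to -0.1726 and INHBA probe 2 to 0.0031. Under the other 26 alternatives no probe of the other 8 genes passed (lowest limma adjusted p = 0.10).

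Without slide 4, BMP6, BMP2 and TGFB3 probe 1 turned to 0.0647, 0.1146 and -0.2757, and without slides 3 and 4 BMP2 and TGFB3 probe 1 to 0.0961 and -0.4730. The mean of both probes turned TGFB3 to -0.0514 and INHBA to -0.2278. Leaving out 1 array, TGFB3 probe 1 ran from -0.0265 (without OA 3) to 0.3483 and INHBA probe 1 from -0.0078 (without sham 4) to 0.1089; TGFB3 probe 1 was also negative without sham 4.

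Over all probes, 1117 higher and 329 lower calls became 2073 higher without a filter, 69 lower with a filter on all 14 arrays, 676 lower after quantile normalization, 784 after median scaling, 747 in the authors' table, and 1722 and 615 after scaling on the 25th percentile, chosen after seeing the data. With the slide as a random block they were 18 and 0 (3762 at an unadjusted p under 0.05 by limma), with the scan day 144 and 5, without slide 4 233 and 3, and without slides 3 and 4 156 and 39. With the replicate number as a block they were 249 and 32 and no member call changed; same-numbered arrays share only a number (correlations of -0.19 to 0.27). Leaving out 1 array gave 595 (sham 1) to 1305 (OA 1) higher and 87 (OA 3) to 1403 (OA 1) lower; higher calls moved by over 1.5 times also without sham 6, OA 2 or OA 3 (675, 690 and 645), and lower calls without any array but sham 7 and OA 7.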
